A study of Mus musculus with 6 samples.

Results

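The epidermal differentiation complex is a cluster of genes on mouse chromosome 3 whose products build the cornified envelope, the cross-linked protein shell of terminally differentiated keratinocytes. Its Lce, Sprr and fused genes were described here in dental epithelial organoids (DEOs). Members were all entries on chromosome 3 whose symbol began with Lce or Sprr or was Lor, Ivl, Flg, Flg2, Hrnr, Rptn, Tchh, Tchhl1, Crnn or Crct1. The rule uses names and position and not levels, but it was set with earlier results of these data known. This gave 48 gene symbols in 54 entries, out of 47360 symbols in 47493 entries. Flg had 7 entries, which were summed. The members comprise 14 Lce1 genes, 6 Lce3 genes, Lce6a, 2 Sprr1 genes, 13 Sprr2 genes including the pseudogenes Sprr2c-ps and Sprr2j-ps, Sprr3, Sprr4, 7 fused S100 genes, Lor, Ivl and Crct1. They lie between positions 92080271 and 93471980 of chromosome 3 (GRCm38), a span of 1392 kb.

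DEOs were grown in Matrigel for 14 days from adult dental epithelial stem cells (aDESCs) of the apical incisor buds of wild-type, female, 9-week-old C57BL/6J mice, and bulk RNA was sequenced from 1 library per medium. All media held Wnt3a-conditioned medium, R-spondin1-conditioned medium, EGF at 100 µg per ml, N-acetylcysteine and Y27632. +N medium added Noggin, a BMP antagonist, at 200 µg per ml, and the other media kept it. +ND medium added dibenzazepine (DBZ), a γ-secretase inhibitor that blocks Notch receptor cleavage, given as 10 µM in the labels and as 10 mM in the methods. +NF medium held FGF10 at 100 µg per ml in place of DBZ, and +NFD medium held both. The 2 media with Jagged1, of 6 in the labels, were not analysed here. How many animals the cells of a library came from is not given in the sources used here, and the cultures started from dissociated tissue, so cells other than epithelium could be carried along.

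In stratified epithelia, envelope proteins are joined by transglutaminases in a fixed sequence. Involucrin is laid down early under the plasma membrane, loricrin is the main reinforcing protein of the epidermal envelope, small proline-rich (Sprr) proteins act as cross-bridges between other envelope proteins, and late cornified envelope (Lce) proteins are added late. The fused genes join an S100-type calcium-binding domain to long repeats, as in filaggrin (Flg), which bundles keratin filaments, hornerin (Hrnr), repetin (Rptn), cornulin (Crnn) and trichohyalin (Tchh), best known from the inner root sheath of the hair follicle. Loricrin, filaggrin and Lce genes are typical of cornifying skin, whereas several Sprr genes, cornulin and repetin are also used in oral, esophageal and forestomach epithelium or after epithelial stress.

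The subfamilies also differ in the sequence before the transcription start. RefSeq promoters (GRCm38.p6, 250 bases before to 50 after the start) were matched by symbol for 43 of the 48 members, and those of Sprr2c-ps, Sprr2g, Sprr2j-ps, Lce1f and Crct1 were not matched. The 200 bases before the RefSeq start of 9 members are printed here, chosen after their values were seen, because the levels described after them differ most between these genes. Capitals mark an AP-1 motif (TGANTCA, bound by Fos and Jun proteins), an octamer (ATTTGCAT), a TATA motif (TATAAA) and the core of an RBPJ motif (TGGGAA, or TTCCCA on the other strand; RBPJ is the DNA-binding partner of cleaved Notch). Sprr2d and Sprr2e are neighbours with near-identical promoters, Sprr2b and Sprr2k are further Sprr2 genes with unlike ratios between DBZ and other media, Sprr1a is an abundant Sprr gene, and Lce1i, Lce3c, Lor and Rptn stand for genes with high levels in DBZ media.
Sprr2d, chr3:92338940-92339139, plus strand: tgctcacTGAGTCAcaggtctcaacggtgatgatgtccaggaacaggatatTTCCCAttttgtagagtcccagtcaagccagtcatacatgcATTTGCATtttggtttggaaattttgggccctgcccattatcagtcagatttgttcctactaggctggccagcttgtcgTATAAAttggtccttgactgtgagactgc
Sprr2e, chr3:92351943-92352142, plus strand: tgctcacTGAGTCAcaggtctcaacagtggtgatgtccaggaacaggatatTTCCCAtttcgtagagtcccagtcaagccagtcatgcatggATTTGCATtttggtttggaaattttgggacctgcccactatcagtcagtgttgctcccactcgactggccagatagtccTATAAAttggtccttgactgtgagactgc
Sprr2b, chr3:92316505-92316704, plus strand: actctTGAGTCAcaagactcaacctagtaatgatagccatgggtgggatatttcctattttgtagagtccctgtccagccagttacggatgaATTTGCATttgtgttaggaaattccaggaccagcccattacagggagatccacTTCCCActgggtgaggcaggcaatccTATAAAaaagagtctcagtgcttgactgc
Sprr2k, chr3:92432382-92432581, plus strand: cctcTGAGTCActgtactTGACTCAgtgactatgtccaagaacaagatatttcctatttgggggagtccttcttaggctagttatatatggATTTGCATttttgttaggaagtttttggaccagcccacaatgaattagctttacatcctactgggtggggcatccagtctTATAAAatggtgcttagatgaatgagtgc
Sprr1a, chr3:92485882-92486081, minus strand: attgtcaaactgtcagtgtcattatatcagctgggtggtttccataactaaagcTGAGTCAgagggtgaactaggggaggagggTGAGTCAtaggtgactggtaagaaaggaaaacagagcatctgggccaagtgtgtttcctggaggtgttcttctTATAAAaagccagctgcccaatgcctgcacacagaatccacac
Lce1i, chr3:92778900-92779099, minus strand: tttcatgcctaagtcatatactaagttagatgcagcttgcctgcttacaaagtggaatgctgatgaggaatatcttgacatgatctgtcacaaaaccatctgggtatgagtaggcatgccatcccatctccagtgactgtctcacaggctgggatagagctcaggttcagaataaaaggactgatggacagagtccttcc
Lce3c, chr3:92944286-92944485, plus strand: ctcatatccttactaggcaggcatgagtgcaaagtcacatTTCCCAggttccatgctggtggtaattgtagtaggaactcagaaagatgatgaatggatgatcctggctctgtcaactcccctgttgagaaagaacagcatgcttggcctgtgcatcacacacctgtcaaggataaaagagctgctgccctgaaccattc
Lor, chr3:92083143-92083342, minus strand: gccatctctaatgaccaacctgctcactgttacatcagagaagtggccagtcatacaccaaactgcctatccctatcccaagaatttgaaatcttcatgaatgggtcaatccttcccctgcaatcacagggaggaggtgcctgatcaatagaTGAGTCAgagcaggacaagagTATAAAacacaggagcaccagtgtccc
Rptn, chr3:93393499-93393698, plus strand: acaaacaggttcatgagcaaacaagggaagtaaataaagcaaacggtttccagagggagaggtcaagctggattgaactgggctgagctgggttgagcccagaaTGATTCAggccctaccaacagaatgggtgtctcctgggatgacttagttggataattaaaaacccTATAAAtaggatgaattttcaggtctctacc

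The AP-1 motif, searched on both strands of the 300-base windows, was in 16 of the 43 matched promoters (37.2%), against 7.81% of 32851 promoters in the RefSeq table. It was in 7 of 10 Sprr2, 2 of 2 Sprr1 and 5 of 7 fused S100 promoters, in those of Lor and Ivl, and in 0 of 13 Lce1 and 0 of 6 Lce3 promoters. The octamer was in 7 of the 43 (16.3%, against 1.74% of all promoters), and all 7 were Sprr2 genes that also held the AP-1 and TATA motifs. The TATA motif was in 46.5% of members' promoters and 13.6% of all, and the RBPJ core in 34.9% and 25.6%. A further 2 motifs were near or below the share of all promoters: GGGTG, bound by KLF proteins, was in 51.2% of members against 57.5%, and AACNNGTT, bound by grainyhead-like (GRHL) proteins, in 2.33% against 4.20%. The interferon-response motif (GAAA, any 2 bases, GAAA) was in 0 members and in 3.44% of all promoters. A match is a description of letters in a window and not of a bound site. Members' promoters derive from duplicated genes, with a median identity between pairs of 66.7% in Sprr2 (100% for Sprr2a1 and Sprr2a2), 64.3% in Lce1 and 59.4% in Lce3, so they are not independent of each other.

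Levels are the authors' FPKM, that is, fragments scaled to transcript length and library size, so that levels of different genes can be set side by side per length. Between 12529 and 12959 genes per library reached 1 FPKM. Read totals are not given in the sources used here, and depth relative to +N, from the smallest steps of low values in 8334 genes, was 0.799 in +ND, 1.05 in +NF and 1.06 in +NFD. Fragment numbers below are estimates from those steps, and a floor of 3 fragments was set for genes listed at 0, which covers counting error only. Ratios are log2((FPKM + 1)/(FPKM + 1)), called log2 ratios here, and understate changes of low genes. A gene is called higher or lower by 2-fold when the ratio passes 2 and the higher library reaches 1 FPKM. With 1 library per medium there is no replicate error, so no difference has a test. Several comparisons share a library, +N above all, and their values are not independent. In bulk RNA, fewer cornifying cells and less RNA of these genes per cell cannot be told apart.

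As a whole, the complex was highest in +ND and lowest in +NF. The summed FPKM of the 48 members was 4436 in +N and 1002 in +NF, against 15802 in +ND and 7959 in +NFD, which is 0.592%, 0.145%, 2.35% and 1.17% of all FPKM in those libraries. Sprr transcripts made up 91.6% of the members' sum in +N and 92.9% in +NF. In the DBZ media they made up only 42.3% (+ND) and 48.4% (+NFD), and Lce transcripts, 3.93% in +N and 1.18% in +NF, took 43.8% and 39.1%. The sum of the 21 Lce genes was 174 in +N and 11.8 in +NF, against 6925 in +ND and 3114 in +NFD, whereas that of the 17 Sprr genes was 4063 and 931, against 6679 and 3856. The 2 sums thus moved by unequal amounts: with DBZ the Lce sum was 39.7-fold higher without FGF10 and 264-fold higher with it, and the Sprr sum 1.64-fold and 4.14-fold.

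**Figure D1:**
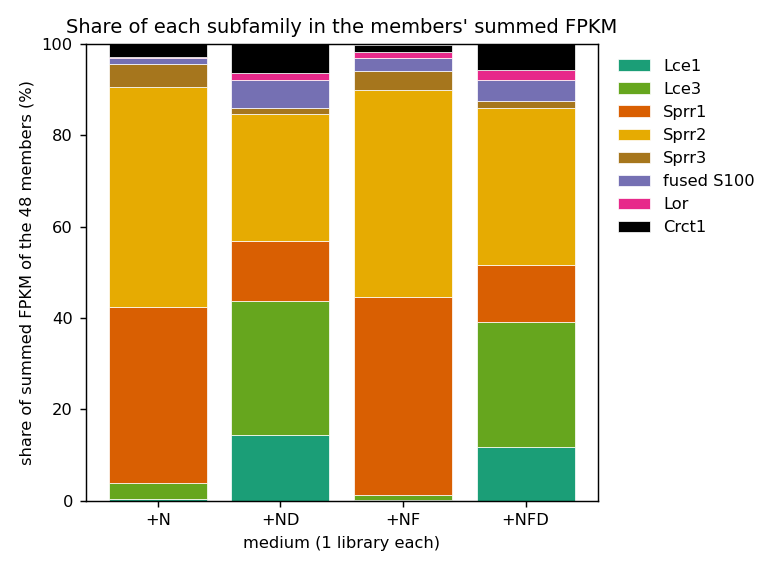
Share of each subfamily in the summed FPKM of the 48 members (y axis, %) in the 4 media (x axis, 1 library each); Ivl, which takes at most 0.248%, Lce6a and Sprr4 are not drawn. Sprr genes fill 91.6% of the +N bar and 92.9% of the +NF bar, and Lce genes 43.8% of the +ND bar and 39.1% of the +NFD bar.

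Of the 48 members, 4 stayed under 1 FPKM in every library. Sprr2c-ps and Sprr4 were listed at 0 in all 4, Lce6a reached 0.791 in +ND and was listed at 0 elsewhere, and Flg2 (filaggrin-2) reached 0.0320 in +ND. Of the other 44, 39 had their highest value in +ND, 4 in +N (Sprr2a1, Sprr2a2, Sprr2k and Sprr3) and 1 in +NFD (Sprr2h). The lowest value was in +NF for 41, in +NFD for Sprr2a2 and Ivl, and in +N for Lor. The order +ND, +NFD, +N, +NF from high to low was shared by 33 members, among them all 20 Lce1 and Lce3 genes, the 6 fused S100 genes other than Flg2, and Crct1. None of the members of the Sprr1 and Sprr3 subfamilies and only 6 of the Sprr2 genes were in that order. The share of all genes with the same highest medium, lowest medium or order was not counted.

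**Figure D2:**
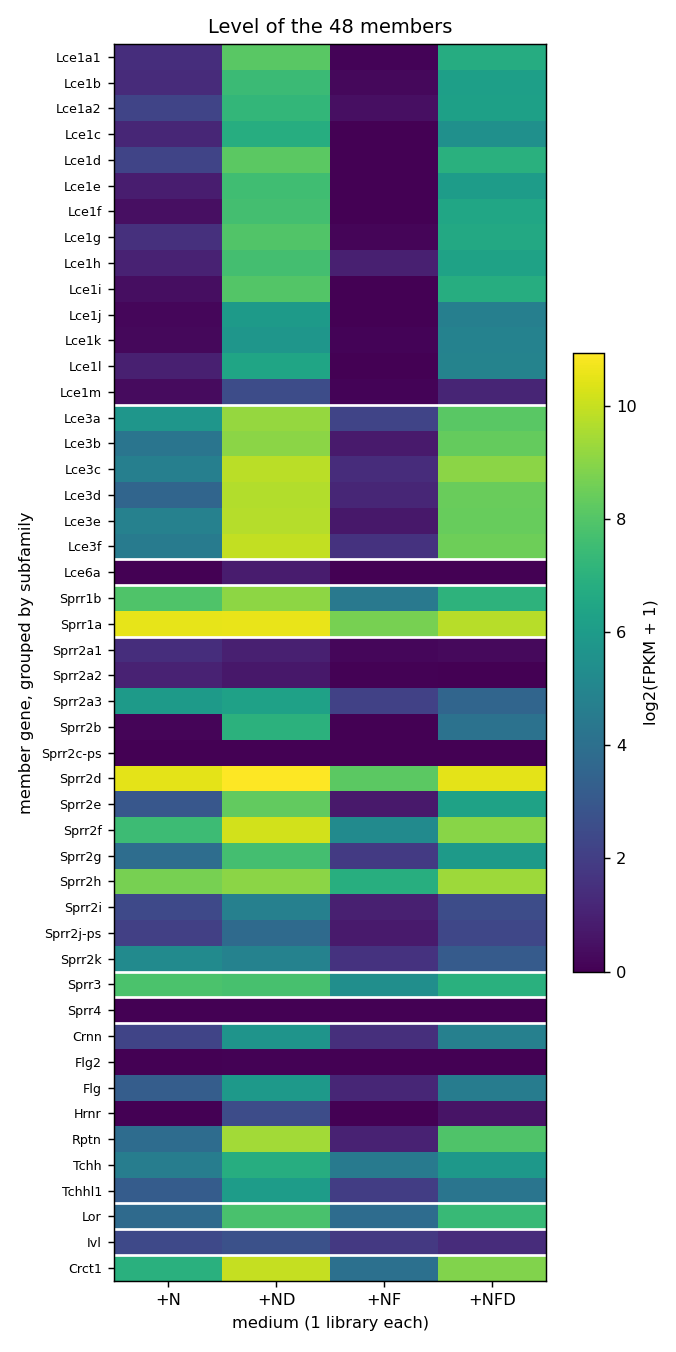
Level of each of the 48 members (rows, grouped by subfamily with white lines) in the 4 media (columns, 1 library each), with color as log2(FPKM + 1). Lce1 rows other than Lce1m are dark in +N and +NF and bright in +ND and +NFD, whereas Sprr1a, Sprr2d, Sprr2h and Sprr3 stay bright in all 4 columns.

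Loricrin and involucrin, the envelope scaffold proteins, differed in their patterns. Where 4 values of a gene follow each other without a medium, here and in later paragraphs, they are FPKM in the order +N, +ND, +NF and +NFD. Lor was at 12.7 FPKM in +N and 13.4 in +NF, against 220 in +ND and 164 in +NFD. Both DBZ libraries were more than 10 times above both libraries without DBZ, with an FPKM 17.2-fold higher without FGF10 and 12.3-fold higher with it. FGF10 alone left Lor at a log2 ratio of 0.064 to +N, a sign that turned to -0.052 when ratios were centred on the median of all genes and to -0.031 with upper-quartile scaling. Ivl was low throughout, at 4.33 in +N and 2.48 in +NF, against 5.56 in +ND and 1.60 in +NFD. Its 4 values spanned a narrower range than those of Lor, and only the +NFD library was 2-fold below +N and +ND (log2 ratios of -1.04 and -1.34).

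Sprr1 and Sprr3 proteins are cross-bridging transglutaminase substrates that keratinocytes also make under stress. Sprr1a was at 1464 FPKM in +N and 415 in +NF, against 1535 in +ND and 865 in +NFD, the highest member in +N and +NF and next after Sprr2d in +ND and +NFD. Sprr1b was at 244, 529, 20.2 and 133, and Sprr3 at 224, 212, 41.1 and 122. For these 3 genes +ND was within a ratio of 2.17 of +N, +NF was lowest, and +NFD lay between +NF and +N. Against +N, FGF10 alone gave log2 ratios of -1.82 for Sprr1a, -3.53 for Sprr1b and -2.42 for Sprr3.

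The Sprr2 genes, a tandem array of close copies, held genes of unlike level side by side. Sprr2d was at 1421 FPKM in +N and 292 in +NF, against 1947 in +ND and 1408 in +NFD. Its neighbour Sprr2e was at 6.80 in +N and 0.673 in +NF, against 310 in +ND and 78.0 in +NFD. Sprr2d was therefore abundant in every medium, and Sprr2e was abundant in the 2 DBZ media. Over the 200 bases printed above the 2 promoters are 92.0% identical, and both have the AP-1 motif at -193, the RBPJ core at -149, the octamer at -108 and the TATA motif at -29, counted from -1 at the base before the start. The log2 ratio with DBZ was 0.45 for Sprr2d and 5.32 for Sprr2e without FGF10, and 2.27 and 5.56 with FGF10.

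Other Sprr2 genes lay at either side of this pair. Sprr2b went from 0.116 FPKM in +N, about 2 fragments, to 128 in +ND, and from a value listed at 0 in +NF to 16.5 in +NFD, at least 114-fold higher than the floor of 3 fragments. Sprr2f (177, 1147, 36.1 and 507 in +N, +ND, +NF and +NFD) and Sprr2g (14.1, 204, 2.60 and 60.6) were also above 2-fold with DBZ in both pairs of media. Sprr2h, at 405, 522, 116 and 639, resembled Sprr2d and was the only member with its highest value in +NFD. Sprr2k, by contrast, was at 36.1, 27.7, 2.01 and 7.91, highest in +N. The low copies Sprr2i (4.39, 26.3, 0.974 and 4.90) and Sprr2j-ps (3.20, 12.5, 0.715 and 4.04) followed the order of Sprr2e at a lower level.

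Sprr2a3 was at 60.7, 75.0, 3.32 and 10.9 FPKM, and both libraries with FGF10 were far below both without. Sprr2a1 did not pass 1.67 and Sprr2a2 did not pass 1.04 FPKM in any library. These values are uncertain: 96.3%, 96.5% and 61.1% of the 50-base words of Sprr2a1, Sprr2a2 and Sprr2a3 also occur in other genes' transcripts, and Sprr2a1 and Sprr2a2 overlap on the same strand. Their promoter windows held neither the AP-1 motif nor the octamer.

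The Lce1 genes, whose products enter the envelope late in epidermal cornification, were low without DBZ and high with it. In +N their levels ran from 0.155 (Lce1j) to 3.77 FPKM (Lce1d), with a median of 0.994. In +ND they ran from 4.88 (Lce1m) to 285 (Lce1d), with a median of 181, so that every Lce1 gene in +ND lay above every Lce1 gene in +N. In +NF, 7 of the 14 were listed at 0 and the highest, Lce1h, was at 0.944. In +NFD the 14 ran from 1.22 (Lce1m) to 121 (Lce1d), with a median of 72.0.

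Lce1i illustrates the range. It was at 0.321 FPKM in +N (about 6 fragments), at 254 in +ND, listed at 0 in +NF, where 3 fragments would be 0.167, and at 111 in +NFD. The +NFD value was at least 669-fold higher than the +NF floor. Lce1d was at least 654-fold and Lce1f at least 528-fold higher in the same pair. Lce1m stands apart in position and level: it lies beyond the Lce3 genes and Crct1, away from the other 13, and at most 4.88 FPKM was listed for it. Lce1 genes share between 0% (Lce1m) and 27.1% (Lce1i) of their 50-base words with other genes, so part of the likeness among them can come from shared fragments, which was not tested.

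Lce3 genes, which in human skin are known for induction after barrier damage, started from a higher level in +N. Lce3c was at 25.5 FPKM in +N and 1.61 in +NF, against 885 in +ND and 525 in +NFD. Lce3a, the highest of the 6 in +N, was at 52.5, 592, 3.78 and 277, and Lce3e at 27.2, 841, 0.618 and 334. All 6 were 2-fold lower with FGF10 alone, with log2 ratios from -4.12 (Lce3e) to -2.42 (Lce3d), and between 277 and 525 FPKM in +NFD. Lce3b (17.8, 516, 0.714 and 328), Lce3d (11.0, 814, 1.25 and 341) and Lce3f (22.3, 984, 2.02 and 369) had the same order. Lce3c, Lce3d, Lce3e and Lce3f share 35.7% to 49.3% of their 50-base words with other genes, and their single values are less certain than their sum, which was 156 in +N and 9.99 in +NF, against 4632 in +ND and 2173 in +NFD, for all 6.

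Among the fused S100 genes, Tchh had the highest level in +N and +NF, and Rptn in +ND and +NFD. Rptn was at 13.8 FPKM in +N and 1.09 in +NF, against 681 in +ND and 244 in +NFD, and shares its strand with the overlapping gene Gm37857, which did not pass 3.46 FPKM. Flg, summed over its entries, was at 8.36, 58.1, 1.28 and 23.3, and Crnn, an esophageal and oral protein, at 3.73, 49.2, 1.81 and 26.4. The other Flg entries lie within the span of the longest, so the sum can overstate the level. That longest entry alone was at 2.45, 18.7, 0.458 and 6.37, below Crnn in each medium. Tchhl1, a trichohyalin-like gene, was at 8.10, 65.7, 2.95 and 17.8. All 4 were in the same order of media, with Rptn spread over the widest range. Tchh was at 23.8, 111, 21.6 and 55.8, and of the 5 fused genes that passed the filter it was the least different between +NF and +N (log2 ratio -0.13). Hrnr was at 0.0242 in +N (about 7 fragments), 4.85 in +ND, 0.0100 in +NF (about 3 fragments) and 0.510 in +NFD, so it passed 1 FPKM in +ND only.

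Crct1, a small cysteine-rich gene between the Lce3 genes and Lce1m, was at 123 FPKM in +N and 15.2 in +NF, against 1003 in +ND and 456 in +NFD. It had the order of the Lce3 genes and lies next to them.

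The comparison of +ND with +N asks what Notch inhibition does without FGF10. Of the 44 members that passed the filter on low values, in +ND 35 were higher by 2-fold or more and 0 lower, while 5.88% of the 13173 genes tested were 2-fold higher and 5.29% lower. Over all 48 without a filter, 42 were higher, 4 lower and 2 equal, with a median log2 ratio of 3.44. The median of the 13173 genes that passed the filter was 0.10. Here and in the later single comparisons, the share of all genes higher or lower at any ratio was not counted. The 2-fold higher members included 14 of 14 Lce1 (median log2 ratio 6.00), 6 of 6 Lce3 (4.98) and 6 of 7 fused S100 genes, with Lor and Crct1 (3.02). Of the Sprr genes, 6 of 13 Sprr2, Sprr1b and neither Sprr1a (0.069) nor Sprr3 (-0.077) passed 2-fold. The largest ratio was that of Lce1i (7.59) and the lowest that of Sprr2a1 (-0.45).

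With FGF10 present, +NFD against +NF gave 40 members at least 2-fold higher and 0 lower of 41 that passed, beside 3.72% and 2.69% of 13349 genes. Over all 48 without a filter, 43 were higher, 2 lower and 3 equal, with a median log2 ratio of 3.94. The median of the 13349 genes that passed the filter was 0.048. Median log2 ratios were 7.42 for Lce3, 5.84 for Lce1, 3.28 for the 5 fused S100 genes that passed, 2.36 for the 10 Sprr2 genes that passed and 1.86 for Sprr1. Sprr1a (1.06), Sprr2a3 (1.46), Sprr2d (2.27), Sprr2h (2.45), Sprr2k (1.57) and Sprr3 (1.55) were above 2-fold here and not in +ND against +N, a difference between the pairs of media that was not tested. Ivl was the only member that passed the filter and was lower (-0.42).

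**Figure D3:**
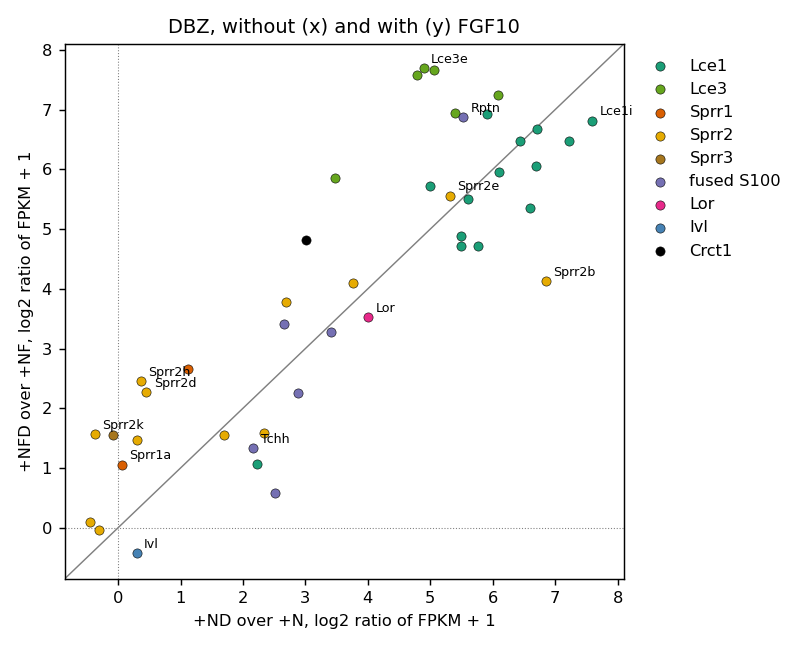
Log2 ratio of FPKM + 1 with DBZ for the 44 members that reach 1 FPKM in a library, without FGF10 (x axis, +ND over +N) and with FGF10 (y axis, +NFD over +NF); points are genes, colored by subfamily, 1 library per medium, and the diagonal marks equal ratios. Of the 44 points, 39 lie above 0 on both axes, with Lce1 and Lce3 at the upper right, Sprr1a, Sprr2a3, Sprr2d, Sprr2h, Sprr2k and Sprr3 near 0 on the x axis and above 1 on the y axis, and Ivl below 0 on the y axis.

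The 2 DBZ comparisons use no library in common. Of the 44 members, 39 were higher with DBZ in both and 34 at least 2-fold higher in both, beside 38.2% and 1.71% of the 13748 genes that reach 1 FPKM in a library. Which of the pairs had the larger ratio depends on the pseudocount: the log2 ratio was larger without FGF10 for 20 of the 44 with a pseudocount of 1 and for 10 with 0.1. The Lce1 medians without and with FGF10 were 6.00 and 5.84 with a pseudocount of 1, and 7.14 and 8.48 with 0.1, so that their order turned. For the 6 Lce3 genes the ratio was larger with FGF10 in each case, from 5.86 to 7.69 against 3.47 to 6.09.

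FGF10 without DBZ, +NF against +N, gave 0 members at least 2-fold higher and 29 lower of 35 that passed, beside 2.76% and 2.44% of 13090 genes. Over all 48 without a filter, 1 was higher (Lor, by the ratio of 0.064 that turned with centring or upper-quartile scaling), 43 lower and 4 equal. Their median log2 ratio was -1.31, while the median of the 13090 genes that passed the filter was 0.12. All 6 Lce3 genes (median -3.40), both Sprr1 genes (-2.67), Sprr3 (-2.42), Crct1 (-2.94) and 10 of 13 Sprr2 genes were 2-fold lower. No Lce1 gene reached 1 FPKM in +NF, so that the 7 of 14 that passed the filter did so through +N alone. Over all 14 without the filter, every Lce1 gene was lower in +NF, with a median log2 ratio of -0.90, which is short of 2-fold.

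In the presence of DBZ, +NFD against +ND, 0 members were at least 2-fold higher and 32 lower of 42 that passed, beside 3.39% and 3.11% of 13293 genes. Over all 48 without a filter, 1 was higher (Sprr2h, 0.29), 45 lower and 2 equal, with a median log2 ratio of -1.25. The median of the 13293 genes that passed the filter was 0.094. Lce1 genes lay in a narrow range, from -1.54 (Lce1l) to -0.90 (Lce1k), and Lce3 genes from -1.41 (Lce3f) to -0.65 (Lce3b). Sprr2 genes spread from -2.89 (Sprr2b) to 0.29 (Sprr2h), and Sprr2d stayed near +ND at -0.47. Lor was at -0.42 and Ivl at -1.34.

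**Figure D4:**
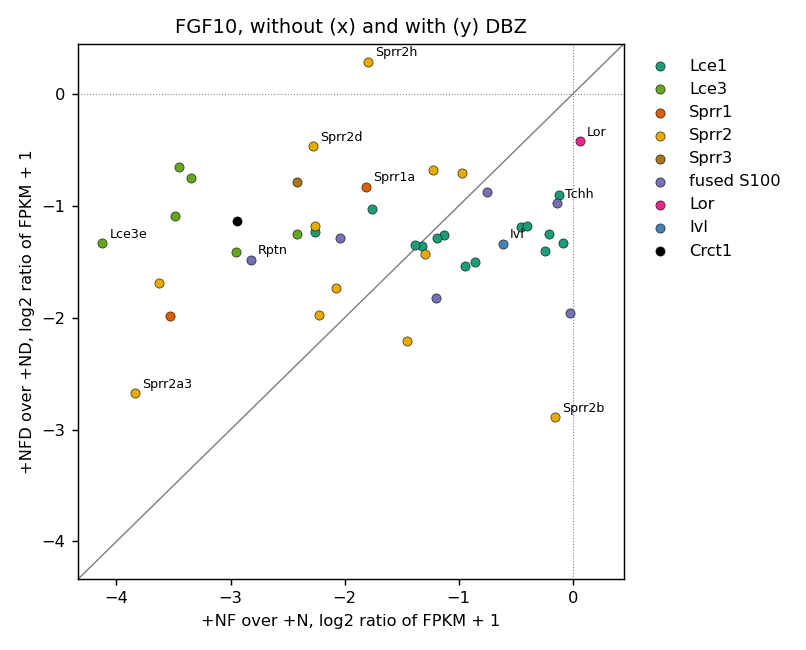
Log2 ratio of FPKM + 1 with FGF10 for the 44 members that reach 1 FPKM in a library, without DBZ (x axis, +NF over +N) and with DBZ (y axis, +NFD over +ND); points are genes, colored by subfamily, 1 library per medium, and the diagonal marks equal ratios. Of the 44 points, 42 lie below 0 on both axes; Lor is above 0 only on the x axis (0.064, below 0 after centring or upper-quartile scaling) and Sprr2h only on the y axis (0.29).

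Those 2 FGF10 comparisons also share no library. Of the 44 members, 42 were lower with FGF10 in both, and 22 at least 2-fold lower in both, beside 15.5% and 0.851% of the 13748 genes. The decrease was larger without DBZ for 24 with a pseudocount of 1 and for 34 with 0.1. Lce3 genes had the larger decrease without DBZ, from -4.12 to -2.42 without DBZ against -1.41 to -0.65 with it. For Lce1 genes, with a median of 0.994 FPKM in +N, the pseudocount of 1 bounds the ratio of +NF to +N.

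FGF10 and DBZ together, +NFD against +N, divided the complex largely by subfamily. Of 43 members that passed, 30 were 2-fold or more higher and 5 as much lower, beside 5.85% and 4.03% of 13358 genes, and with ratios centred on the median of all genes (0.18) 29 were higher and 7 lower. Over all 48, 36 were higher, 9 lower and 3 equal, with a median log2 ratio of 2.20. Those 2-fold higher were 13 Lce1 genes (median of the 14, 4.75), 6 Lce3 genes (4.06), 5 fused S100 genes, 4 Sprr2 genes (Sprr2b, Sprr2e, Sprr2f and Sprr2g), Lor (3.58) and Crct1 (1.88). The 5 that were 2-fold lower were Sprr2a3 (-2.37), Sprr2k (-2.06), Sprr2a1 (-1.13), Ivl (-1.04) and Sprr2a2 (-1.01), and without the 3 Sprr2a genes, whose sequence is shared, 2 remained. Sprr1a (-0.76), Sprr1b (-0.87) and Sprr3 (-0.87) were lower by less than 2-fold, and Sprr2d was at a log2 ratio of -0.014, which lay below the median of all genes. With FGF10 and DBZ together the Sprr sum was 0.949 times that in +N and the Lce sum 17.9 times.

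**Figure D5:**
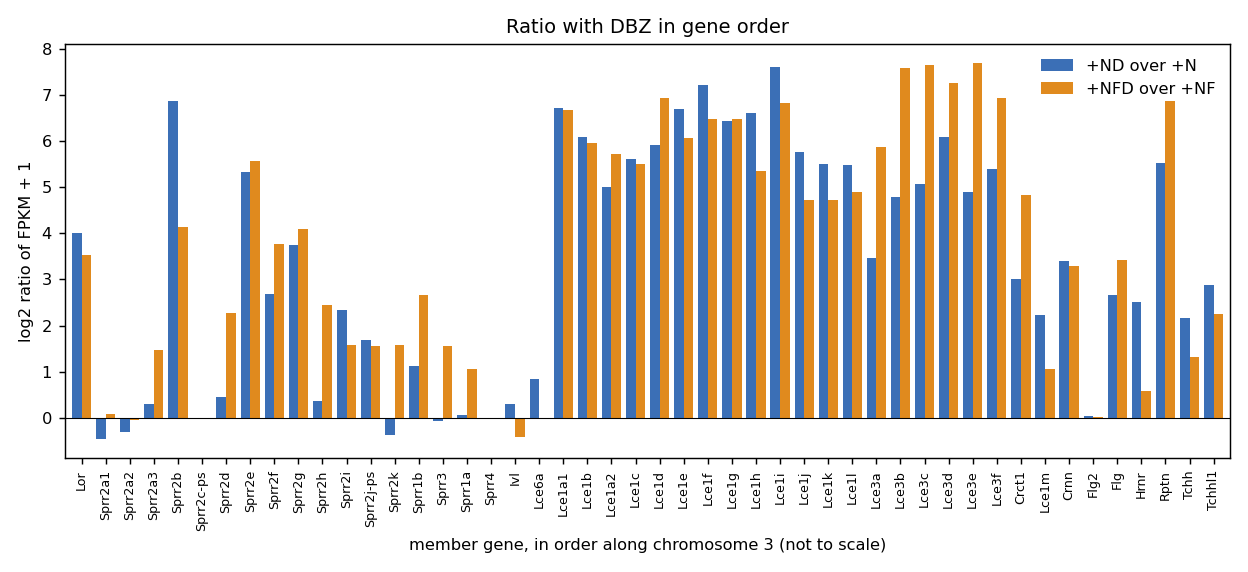
Log2 ratio of FPKM + 1 with DBZ (y axis) for the 48 members in their order along chromosome 3 (x axis, evenly spaced and not to scale), as +ND over +N and +NFD over +NF, 1 library per medium. Bars are at 4.71 or higher for the run of 13 Lce1 genes in the middle and at 3.47 or higher for the Lce3 genes after it, and the Sprr genes to the left hold low and high bars side by side, as for Sprr2d and Sprr2e.

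Along the chromosome, the members fall into blocks. Lor is at the lowest position, followed by the Sprr2 array, the Sprr1 and Sprr3 genes, Ivl, the Lce1 run, the Lce3 run with Crct1, and the fused genes at the highest positions. Ivl and Lce6a, low in every library, lie between the Sprr and the Lce genes. Between the outermost members, 39 other entries were listed, of which 10 reached 1 FPKM in a library and 0 were S100 genes. Kprp, a keratinocyte proline-rich protein gene, was at 3.11 FPKM in +N and 0.518 in +NF, against 131 in +ND and 47.6 in +NFD, and 2310046K23Rik at 79.0, 510, 10.5 and 111. Both had the order of most members. Gm4202 (18.9, 13.1, 18.9 and 14.3) and Gm9774 (6.40, 6.37, 5.72 and 5.58), in the same span, differed by less than 2-fold between any 2 of the media. Of the 10, 6 were 2-fold higher and 0 lower in +ND than in +N, beside 5.88% and 5.29% of all genes tested. That count is partly set by the filter. Among the 6, 2310050C09Rik (0.0785 in +N and 15.1 in +ND), Gm37857 (0.0399 and 3.46) and Prr9 (0.0936 and 1.98) passed it through +ND alone.

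Genes elsewhere that cross-link or scaffold the envelope were counted as a list of 17. Against +N, +ND had 11 at least 2-fold higher and 2 lower of 16 that passed the filter, beside 5.88% and 5.29% of all genes tested. In +NF, 0 were higher and 8 lower of 14, beside 2.76% and 2.44%, and in +NFD 4 higher and 2 lower of 15, beside 5.85% and 4.03%. Against +NF, +NFD had 10 higher and 0 lower of 15, beside 3.72% and 2.69%. Against +ND, it had 0 higher and 10 lower of 16, beside 3.39% and 3.11%. Tgm3, a transglutaminase of terminal differentiation, was at 2.24, 35.7, 0.103 and 3.62 FPKM in +N, +ND, +NF and +NFD, whereas Tgm1, the membrane-anchored transglutaminase, was at 164, 169, 119 and 127. The cross-linking enzymes thus differed from each other, with Tgm1 within 2-fold in all comparisons. Cdsn (corneodesmosin, 9.14, 247, 2.20 and 93.4) and Cnfn (cornifelin, 338, 1582, 98.8 and 808) had the order of the Lce genes. So did Krt1, a keratin of the same list: it was at 52.2 in +ND and 1.07 in +NFD, and under 1 FPKM in +N and, lowest, in +NF. Krt10, the keratin of the spinous layer, did not have this order: it was at 94.1, 32.8, 1.25 and 2.93. Evpl (envoplakin), an early scaffold protein, was highest in +N as Krt10 was, at 39.3, 16.9, 20.4 and 19.6, whereas Ivl was highest in +ND.

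Of 26 transcriptional regulators of keratinocyte differentiation, 24 passed the filter in each comparison. In +ND against +N, 4 were at least 2-fold higher and 4 lower, beside 5.88% and 5.29% of all genes tested. Klf4, a barrier regulator, was at 27.6, 68.2, 14.0 and 35.3 FPKM in +N, +ND, +NF and +NFD, and Ovol1 at 11.7, 35.1, 6.49 and 20.2, both in the order of most members. Fosl1, an AP-1 subunit, was at 8.17, 20.2, 7.59 and 16.3. The other Fos and Jun genes of the list did not have its order. Junb (352, 223, 212 and 242) and Jun (46.0, 26.5, 20.2 and 22.4) were highest in +N. Fos (25.6, 24.7, 19.1 and 26.8), Jund (16.8, 14.3, 11.8 and 16.9) and Fosl2 (43.6, 50.7, 27.5 and 40.9) did not pass 2-fold in any comparison. Zfp750 (28.7, 9.04, 14.5 and 5.92) was lower by at least 2-fold with DBZ in both pairs of media. Pou2f3, an octamer-binding factor, did not pass 0.267 in any library.

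Notch target and pathway genes were read as a check of the DBZ label. Nrarp, a direct Notch target, was at 18.2 FPKM in +N and 9.12 in +NF, against 2.80 in +ND and 2.60 in +NFD, and Hes1 at 157, 74.6, 109 and 80.1. Both were lower in the DBZ media, Hes1 by 2-fold only without FGF10 (log2 ratios of -1.06 and -0.44). Of 10 genes of the list, 6 passed the filter, and 4 were 2-fold lower and 0 higher in +ND against +N, where 5.29% of all genes were 2-fold lower. In +NFD against +NF, 2 of the 6 were 2-fold lower and 0 higher, beside 2.69% of all genes.

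Epithelial markers were present in every library, with all 6 of 6 at or above 1 FPKM and a summed level of 19617 FPKM in +N and 15272 in +NF, against 10807 in +ND and 12566 in +NFD. Most of that sum was Krt14 (12652, 5530, 8295 and 6090 in +N, +ND, +NF and +NFD) and Krt5 (6582, 4984, 6535 and 6177). Cdh1 and Krt15 were also highest in +N, whereas Trp63 was highest in +ND (166) and Epcam in +NF (218). The dental epithelial marker Sox2 was at 14.2, 12.3, 8.21 and 5.83 FPKM, lowest in +NFD (log2 ratio of -1.15 to +N). The enamel matrix genes Amelx, Ambn and Enam were under 1 FPKM except in +NFD. Odam, also of that list of 6, was at 6221 FPKM in +N and 5441 in +NF, against 2824 in +ND and 2602 in +NFD. Of the 6, 3 were 2-fold higher and 2 lower in +NFD than in +N, beside 5.85% and 4.03% of all genes tested. Of 8 fibroblast markers none was at 0, and their summed FPKM was 153, 129, 94.6 and 378 in the order of media above. Of 7 macrophage markers none was at 0, with a sum of 624, 509, 440 and 382 in that order, of which Lyz2 alone was 528, 408, 373 and 288. Cd68 (23.5, 36.2, 16.2 and 32.9) and Adgre1 (5.27, 8.38, 5.25 and 6.81) had the order of most members. So did Ptprc, which reached 1 FPKM in +ND only. Lyz2, C1qa (52.0, 43.3, 34.9 and 38.9) and Csf1r (7.19, 5.28, 5.15 and 6.51) were instead highest in +N, and Cd14 in +NFD. In +ND against +N, 3 of the 7 macrophage markers were higher and 4 lower, 0 of them by 2-fold. In +NFD against +NF, 5 of the 6 that passed the filter were higher and 1 lower, 0 of them by 2-fold. The median log2 ratio of all genes in that comparison was 0.048. The 5 endothelial and 4 melanocyte markers stayed under 1 FPKM in every library. The fibroblast sum did not follow the order of the members, being highest in +NFD, and the part of any of these cells in the members' values was not tested.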

How the data were processed

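RNA was measured in DEOs grown in 4 media, with 1 library each. The authors built TruSeq libraries, and the submitters' processing notes name FastQC 0.11.9, Trim Galore 0.6.5 for trimming, TopHat2 2.1.1 and the build GRCm38. The deposited values are FPKM, which the authors estimated with Cufflinks. Strand setting, annotation release and multi-read handling are not given in the sources used here, so genes with near-identical sequence or overlap can share fragments. FPKM of short transcripts rests on few fragments, and abundant transcripts lower the values of others.

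Entries that share a symbol were added up, which concerned 123 symbols. Ratios used a pseudocount of 1 and genes with at least 1 FPKM in the higher library; 2-fold was the call, after the study's fold limit, and no test was made with 1 library per medium. One-fragment steps, overlaps and shared 50-base words came from GENCODE transcripts on GRCm38, and promoters from RefSeq. Members, lists and motifs were chosen with earlier results of these data known; every member may be named, and other genes only from the lists. Alternatives were a pseudocount of 0.1 or none, no filter or 5 FPKM, upper-quartile scaling, centring, the highest entry per symbol and, chosen after seeing the data, leaving out members that share 50% or more of their 50-base words. Simulated +ND and +N data were drawn from the +N levels at equal depth, with counting error only. On them, 137 of 137 genes changed 4-fold were called in the right direction among 9241 at 5 FPKM or more, and 0 others were called. Differences between cultures did not enter, so these counts give no rate of false calls in the real libraries. How often genes differ 2-fold between cultures in the same medium was not tested. Python 3.11.15, numpy 2.4.6, pandas 2.3.3, Biopython 1.88 and matplotlib 3.10.9 were used.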

Additional observations from a re-analysis of the deposited data

Results flagged for a closer look

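The FGF10 or DBZ ratio had opposite signs in the 2 pairs of media for 5 members, each with 1 library per medium, and the difference between the pairs was not tested. For FGF10, the log2 ratio of Lor was 0.064 without DBZ, a sign that turned with centring and with upper-quartile scaling, and -0.42 with DBZ, and that of Sprr2h was -1.80 and 0.29. For DBZ, Sprr2k was at -0.37 without FGF10 and 1.57 with FGF10, Sprr3 at -0.077 and 1.55, and Ivl at 0.30 and -0.42.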

How the results depend on the processing

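With 1 library per medium no replicate could be left out and no value has an error. No paired analysis was possible because the media share fewer than 2 replicate numbers. Counts of members at least 2-fold higher or lower stayed within 1.5 times in 78 of the recomputed values, and 2 moved. Both were the count of members 2-fold lower in +NFD than in +N, which went from 5 to 2 with a filter at 5 FPKM, where fewer genes are tested, and to 2 without the 3 members of shared sequence. Of the medians over all members and over subfamilies, 387 kept their sign and their side of 2-fold, and 9 did not. Without a filter, the Sprr2 median in +ND against +N went from 1.07 to 0.45 and the Lce1 median in +NF against +N from -1.32 to -0.90. With a filter at 5 FPKM, the Sprr2 median in +NFD against +N went from 0.20 to 1.08. After centring, Sprr3 in +NFD against +N passed 2-fold lower, at -1.05. Depth limits the Lce1 genes in +NF, where 3 fragments are 0.117 to 0.201 FPKM.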
